A study of Mus musculus with 8 samples.

Results

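The 10 genes described here encode p53, its feedback partners and the products that p53, GADD45 and FoxO factors are known for after cell damage. They are Trp53, Mdm2, Ccng1, Cdkn1a, Btg2, Gadd45a, Gadd45b, Gadd45g, Trp53inp1 and Sesn1, chosen by name from the 46517 genes of a liver count table. Earlier results of these data were known when they were chosen. Each of the 10 symbols matched 1 gene of the table. Whole livers of 4 MøFoxO1-KO mice (FoxO1 loxP/loxP with Lyz2-Cre) were compared with livers of 4 WT littermates (FoxO1 loxP/loxP without Cre). All 8 mice were C57BL/6 males that ate a NASH-inducing diet for 25 weeks from 6 weeks of age, so they were 31 weeks old when they were killed after a fast of 16 hours. Both groups carried the floxed FoxO1 allele, and no Lyz2-Cre mouse without that allele and no mouse on another diet was part of the comparison. The Lyz2 promoter drives Cre in macrophages, monocytes and neutrophils, while most RNA of a whole liver comes from hepatocytes. In such bulk RNA, fewer cells of a type and less RNA per cell cannot be told apart. WT mice are named by their replicate numbers 22 to 25 and MøFoxO1-KO mice by 26 to 29, and per-mouse values are always given in that order.

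p53 is a transcription factor that is kept scarce by the ubiquitin ligase Mdm2 and accumulates when DNA is damaged or a cell is stressed. It then switches on genes that halt the cell cycle (Cdkn1a, Btg2), feed back on p53 itself (Mdm2, Ccng1), signal through stress kinases (Gadd45a of the Gadd45 family) or adjust autophagy and growth (Trp53inp1, Sesn1). FoxO factors, which insulin keeps out of the nucleus, are known to induce several of the same genes, among them Cdkn1a, Gadd45a and Sesn1, and p53 activation has been described in hepatocytes of fatty livers. The comparison asks whether mRNA levels of these genes in the NASH liver differ when myeloid cells lack FoxO1.

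Promoter windows were searched for the binding motifs of both factors, since these motifs are how p53 and FoxO proteins recognize their target genes. The windows are those of RefSeq on GRCm38.p6, from 250 bases before to 50 bases after each start. Of the 10 genes, 9 matched a window, with 11 windows in all, and Trp53inp1 did not match. The p53 site, made of 2 adjacent half-sites and allowing at most 1 mismatch, reads the same on both strands. It was found in 29 of 32851 windows (0.0883%), among them those of Cdkn1a and Ccng1. The FoxO core GTAAACA, searched on both strands, was found in 1199 windows (3.65%), among them those of Mdm2 and Sesn1. An exact p53 half-site, which the p53 sites overlap, was found in 2745 windows (8.36%) and in windows of 6 of the 10 genes: Ccng1, Cdkn1a, Gadd45a, Mdm2, Sesn1 and Trp53. The matches to the full p53 site and to the FoxO core are printed below 5′ to 3′ along the strand of the gene, with the motif in capitals.
Cdkn1a, p53 site, chr17:29090908-29090967, plus strand: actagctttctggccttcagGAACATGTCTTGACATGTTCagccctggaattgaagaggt
Ccng1, p53 site, chr11:40755442-40755501, minus strand: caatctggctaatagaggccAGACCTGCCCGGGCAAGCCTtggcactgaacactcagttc
Mdm2, FoxO core, chr10:117710885-117710931, minus strand: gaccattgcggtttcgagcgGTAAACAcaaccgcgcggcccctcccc
Sesn1, FoxO core on the opposite strand, chr10:41810585-41810613, plus strand: gaaccttctacTGTTTACcagccttttgg
Counted from the RefSeq start of the window, which for Ccng1 lies inside the gene span of the count table, the motif began at position -51 in Cdkn1a, -195 in Ccng1, -153 in Mdm2 and 23 in Sesn1. A match of letters is a description of the window and does not show that either factor binds there.

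Total counts lay between 15253218 and 18025481 per mouse, and the 10 genes had between 22 and 1204 counts in a mouse, so all 10 passed the filter on low counts that left 13278 genes. Normalized counts are counts scaled by edgeR's TMM to a common library size. Foxo1, the targeted gene, had 404 ± 73.9 normalized counts in WT livers versus 359 ± 73.4 in livers of MøFoxO1-KO mice (SD, n = 4 each, exact permutation test, P = 0.343), so whole liver RNA did not show the deletion in myeloid cells. The coordinates below are those of the count table on GRCm38, where every one of the 10 genes is annotated as protein coding and reads were counted over its exons.

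None of the 10 genes differed between MøFoxO1-KO and WT littermates by more than the spread between mice. With edgeR's quasi-likelihood test, 0 of the 10 met the study's limits for a call, a P under 0.05 after Benjamini-Hochberg (BH) adjustment together with a log2 fold change beyond 1.5 in either direction, which 0.188% of all tested genes met. At the adjusted P alone the count was also 0 of 10, against 0.294% of all tested genes. At an unadjusted P under 0.05 it was still 0 of 10 with edgeR, where 8.65% of all tested genes lay above and 8.06% below their WT level in MøFoxO1-KO mice. DESeq2 and limma-voom put 0 of the 10 past an adjusted P of 0.05, against 586 and 24 of the 13278 tested genes. At the limits for a call they had 0 of the 10, against 144 and 13 of all tested genes. Both also had 0 of the 10 at an unadjusted P under 0.05, where their share of all tested genes is not given here. In 0 of the 10 genes were the normalized counts of the groups free of overlap, as they were in 9.71% of all tested genes. The mean difference was positive for 3 genes (Mdm2, Ccng1 and Sesn1) and negative for 7, with a median log2 fold change of -0.22 beside -0.01 over all tested genes. Leaving out 1 mouse turned the sign for 6 of the 10 (Trp53, Cdkn1a, Ccng1, Gadd45b, Gadd45g and Sesn1), so these directions rest on single mice. For 4 genes, Trp53, Mdm2, Ccng1 and Sesn1, the 95% interval of the log2 fold change lay within a 2-fold difference either way. For the other 6 the interval reached past a 2-fold lower level, just so for Btg2. That of Gadd45g also reached past a 2-fold higher level (-1.27 to 1.14 on the log2 scale). Such differences lie within the error of these estimates.

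**Figure D1:**
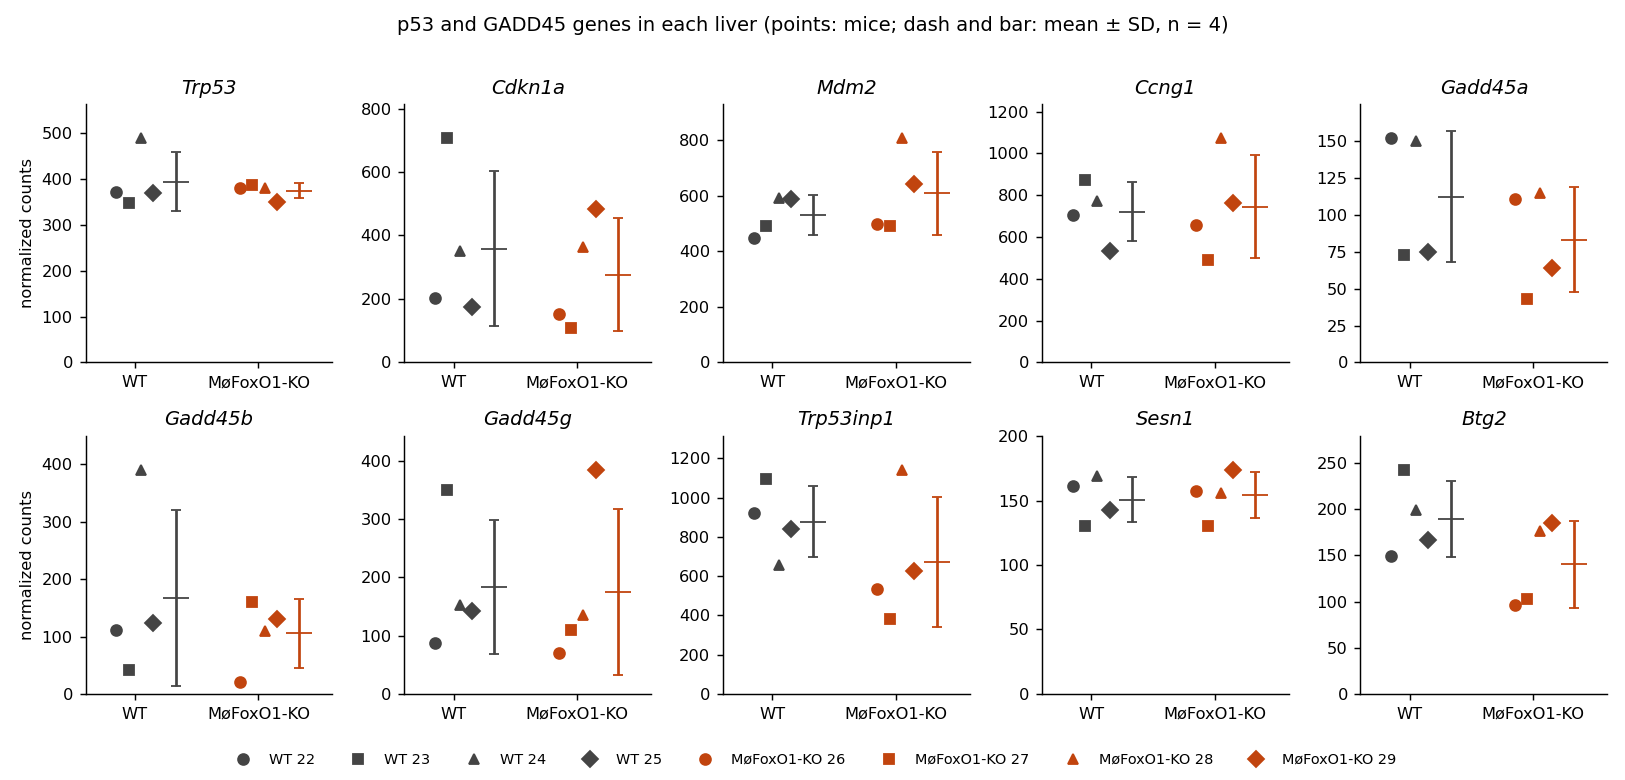
Normalized counts (vertical axes, each starting at 0) of the 10 genes in each of the 4 WT (grey) and 4 MøFoxO1-KO (orange) livers, 1 symbol a mouse, with the group mean and SD as a dash and bar beside the points. In every panel the groups overlap, and single mice such as WT 24 for Gadd45b (391) or MøFoxO1-KO 29 for Gadd45g (385) stand far above their group.

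**Figure D2:**
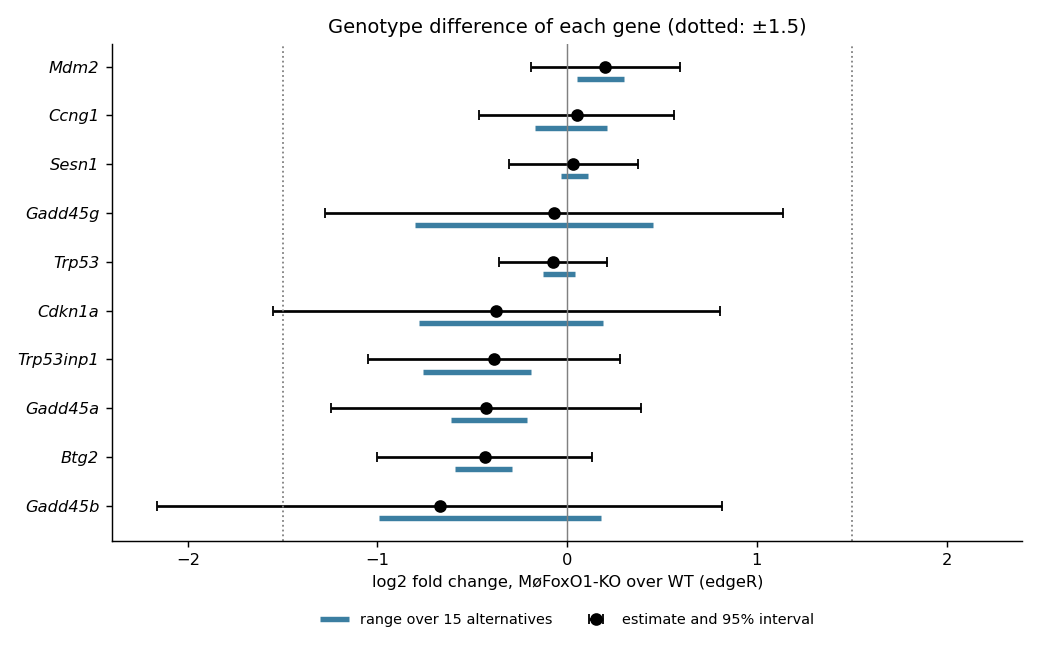
Log2 fold change of MøFoxO1-KO over WT (horizontal axis) for each gene, with edgeR's 95% interval in black and the range over 15 other ways of fitting the data in blue. All 10 intervals include 0, from the narrow one of Trp53 (-0.36 to 0.21) to the wide one of Gadd45b (-2.16 to 0.82).

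Among the regulators of p53 activity, Trp53 (ENSMUSG00000059552, chr11:69580359-69591873, plus strand) encodes p53 itself. Trp53 had 371, 347, 489 and 370 normalized counts in the WT mice and 380, 387, 381 and 350 in the MøFoxO1-KO mice. WT 24 was the highest of the 8 and all other mice lay close together, so the groups overlapped. The means were 394 ± 64.1 in WT livers versus 374 ± 16.3 in livers of MøFoxO1-KO mice (SD, n = 4 each, exact permutation test, P = 0.857). The estimated log2 fold change was -0.08 ± 0.13 (SE, BH-adjusted P by edgeR = 0.808).

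Mdm2 (ENSMUSG00000020184, chr10:117688888-117710758, minus strand) encodes the ligase that marks p53 for degradation and is itself a p53 target. It had 447, 493, 593 and 590 normalized counts in WT and 497, 492, 808 and 643 in MøFoxO1-KO livers. The highest values were those of MøFoxO1-KO 28 and 29, while MøFoxO1-KO 26 and 27 lay within the WT range. Group means were 531 ± 72.7 and 610 ± 149 (SD, n = 4 each), and the estimated log2 fold change was 0.20 ± 0.18 (SE, BH-adjusted P by edgeR = 0.608) and 0.05 without MøFoxO1-KO 28. Ccng1 (ENSMUSG00000020326, chr11:40748552-40755311, minus strand) encodes cyclin G1, a p53 target that works with phosphatase 2A on Mdm2. Its normalized counts were 703, 872, 774 and 535 in WT and 657, 488, 1073 and 763 in MøFoxO1-KO livers. Both the lowest mouse (27) and the highest (28) were MøFoxO1-KO, and the WT mice lay between them. The means of Ccng1 were 721 ± 142 and 745 ± 246 (SD, n = 4 each), for a log2 fold change of 0.05 ± 0.23 (SE, BH-adjusted P by edgeR = 0.938), which was -0.17 without MøFoxO1-KO 28.

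Of the genes that stop the cell cycle, Cdkn1a (ENSMUSG00000023067, chr17:29090979-29100722, plus strand) encodes p21, the inhibitor of cyclin-dependent kinases and the classical p53 target. Cdkn1a had 203, 707, 350 and 176 normalized counts in WT and 152, 109, 363 and 484 in MøFoxO1-KO livers. Each group held mice with low levels and mice with high levels, and WT 23 was the highest of all. From 109 in MøFoxO1-KO 27 (91 counts, exact 95% Poisson interval 87.5 to 133 normalized counts) to 707 in WT 23 (719 counts, interval 656 to 761), the level differed 6.51-fold, far beyond counting error. The means were 359 ± 244 in WT livers versus 277 ± 177 in livers of MøFoxO1-KO mice (SD, n = 4 each, exact permutation test, P = 0.6). For Cdkn1a edgeR gave a log2 fold change of -0.37 ± 0.53 (SE), a 95% interval from -1.55 to 0.81 and a BH-adjusted P of 0.768. It was 0.19 when WT 23 was left out.

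Btg2 (ENSMUSG00000020423, chr1:134075170-134079120, minus strand) encodes an antiproliferative protein of the BTG/TOB family that brings the CCR4-NOT deadenylase to mRNAs. It had 149, 243, 199 and 167 normalized counts in WT and 95.9, 103, 177 and 185 in MøFoxO1-KO livers. MøFoxO1-KO 26 and 27 lay below every WT mouse, and MøFoxO1-KO 28 and 29 lay inside the WT range. Means were 190 ± 41.2 and 140 ± 47.4 (SD, n = 4 each), which gave the smallest P among the 10 genes (exact permutation test, P = 0.2). For Btg2 edgeR gave a log2 fold change of -0.43 ± 0.25 (SE), a 95% interval from -1.0 to 0.13 and a BH-adjusted P of 0.425. Without MøFoxO1-KO 29 it was -0.59, and no setting put Btg2 past an adjusted P of 0.05 (lowest BH-adjusted P by edgeR = 0.348).

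The GADD45 proteins are small acidic proteins that bind the kinase MTK1 (Map3k4) upstream of p38 and JNK, as well as p21, PCNA and Cdk1. Gadd45a (ENSMUSG00000036390, chr6:67035096-67037457, minus strand) is the member most firmly tied to both p53 and FoxO. Gadd45a had 152, 72.8, 150 and 74.7 normalized counts in WT and 111, 43.0, 115 and 63.8 in MøFoxO1-KO livers. In either group 2 mice were high and 2 were low, and the lowest was MøFoxO1-KO 27. Its means were 112 ± 44.7 and 83.2 ± 35.5 (SD, n = 4 each), for a log2 fold change of -0.43 ± 0.37 (SE, BH-adjusted P by edgeR = 0.601). Of its exons, 337 bases (19.1%) are shared with E230016M11Rik on the opposite strand, which had 11 to 63 counts, and whether counting used strand is not given in the sources used here. No other of the 10 genes shared exon bases with another gene of the table.

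Gadd45b (ENSMUSG00000015312, chr10:80930091-80932204, plus strand) is known to respond to NF-κB and TGF-β and to be induced in regenerating liver. It varied most between mice, with 111, 42.3, 391 and 123 normalized counts in WT and 21.1, 160, 110 and 131 in MøFoxO1-KO livers. WT 24 stood far above all others and MøFoxO1-KO 26 far below, while 5 of the remaining 6 mice lay between 110 and 160. These extremes were 18.6-fold apart, at 424 counts in WT 24 (exact 95% Poisson interval 355 to 430 normalized counts) and 22 counts in MøFoxO1-KO 26 (interval 13.2 to 31.9). The means were 167 ± 154 and 106 ± 59.9 (SD, n = 4 each), and its log2 fold change of -0.67 had the widest interval of the 10 genes, from -2.16 to 0.82 (BH-adjusted P by edgeR = 0.659). Leaving out WT 24 turned it to 0.18.

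Gadd45g (ENSMUSG00000021453, chr13:51846678-51848468, plus strand) had 88.1, 350, 152 and 143 normalized counts in WT and 70.9, 109, 136 and 385 in MøFoxO1-KO livers. It was high in 1 mouse of each group, WT 23 and MøFoxO1-KO 29, and the other 6 lay between 70.9 and 152. Means were 183 ± 115 and 175 ± 142 (SD, n = 4 each), for a log2 fold change of -0.07 ± 0.54 (SE, BH-adjusted P by edgeR = 0.961). Without MøFoxO1-KO 29 it was -0.80 and without WT 23 it was 0.45, and 4 of the 8 fits that left out 1 mouse turned the sign. The 3 GADD45 genes did not single out the same mice. Gadd45a was highest in WT 22, Gadd45b in WT 24 and Gadd45g in MøFoxO1-KO 29, and their log2 levels were not correlated past the threshold over the 8 mice. Pearson's r was 0.06 for Gadd45a with Gadd45b (rho = -0.14, exact permutation tests, P = 0.89 and 0.752, BH-adjusted P = 1.0 and 0.892 over 45 pairs) and 0.28 without the 2 mice farthest from the median of Gadd45a. It was 0.13 for Gadd45b with Gadd45g (rho = 0.36, exact permutation tests, P = 0.759 and 0.389, adjusted P = 0.993 and 0.762) and -0.52 without the 2 mice farthest from the median of Gadd45b. For Gadd45a with Gadd45g it was -0.38 (rho = -0.36, exact permutation tests, P = 0.352 and 0.389, adjusted P = 0.832 and 0.762) and -0.66 without the 2 mice farthest from the median of Gadd45a.

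The last pair acts on autophagy and growth. Trp53inp1 (ENSMUSG00000028211, chr4:11156431-11174379, plus strand) encodes a stress protein that promotes p53 activity and autophagy. Trp53inp1 had 924, 1094, 657 and 838 normalized counts in WT and 534, 382, 1143 and 626 in MøFoxO1-KO livers. MøFoxO1-KO 26, 27 and 29 lay below all WT mice, whereas MøFoxO1-KO 28 was the highest of the 8. The means were 878 ± 182 and 671 ± 330 (SD, n = 4 each), and the estimated log2 fold change was -0.39 ± 0.30 (SE, BH-adjusted P by edgeR = 0.558). Without MøFoxO1-KO 28 it was -0.76, which still missed the threshold over all genes (BH-adjusted P by edgeR = 0.134). Sesn1 (ENSMUSG00000038332, chr10:41810574-41908424, plus strand) encodes sestrin 1, which restrains mTORC1. Normalized Sesn1 counts were 161, 130, 169 and 143 in WT and 157, 130, 156 and 174 in MøFoxO1-KO livers, the narrowest range of the 10 genes. The groups overlapped over nearly their whole range, with means of 151 ± 17.6 and 154 ± 17.9 (SD, n = 4 each) and a log2 fold change of 0.03 with an interval from -0.31 to 0.37 (BH-adjusted P by edgeR = 0.94).

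Levels of the 10 genes were also compared with each other, as normalized counts per kilobase of exon averaged over the 8 mice. Ccng1 had the highest level (209 ± 53.1, SD over 8 mice) and Sesn1 the lowest (45.8 ± 4.97). Between them came Gadd45g (153 ± 102), Cdkn1a (143 ± 91.0), Trp53inp1 (120 ± 41.8), Mdm2 (112 ± 23), Gadd45b (108 ± 89.2), Trp53 (95.0 ± 11), Btg2 (60.1 ± 17.8) and Gadd45a (55.4 ± 22.9). Of the 9 pairs of neighbours in this order, Trp53 and Btg2 were best separated, with Trp53 above Btg2 in 7 of 8 mice (exact paired permutation test, P = 0.0156, BH-adjusted P = 0.141 over 9 pairs). Ccng1 lay above Gadd45g in 6 of 8 mice (exact paired permutation test, P = 0.0703, adjusted P = 0.316), and the other 7 pairs had adjusted P of 0.844 or more. No pair of neighbours was separated beyond the spread between mice after adjustment.

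The 10 genes differed in how much they varied between mice of the same genotype. The SD of log2 normalized counts among mice of the same genotype was 0.162 for Trp53 and 0.171 for Sesn1, smaller than in most tested genes (percentiles 16.9 and 19.8). It was 0.28 for Mdm2, 0.396 for Ccng1, 0.416 for Btg2, 0.515 for Trp53inp1 and 0.637 for Gadd45a. Gadd45g (0.935), Cdkn1a (0.963) and Gadd45b (1.32) varied most and ranked at percentiles 95.1, 95.5 and 98.2 of all tested genes. The median was 0.466 over the 10 genes and 0.281 over all tested genes, and 7 of the 10 lay above the latter. The gene of p53 itself was thus steady from mouse to mouse, and the widest spreads were those of the p21 gene and of 2 GADD45 genes.

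**Figure D3:**
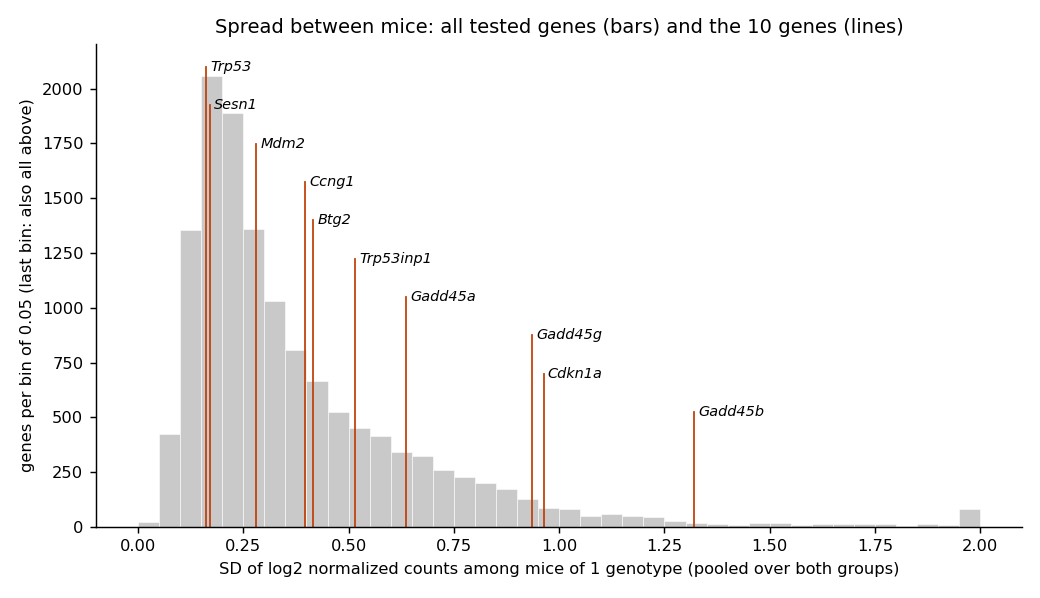
Number of tested genes (vertical axis) by the SD of log2 normalized counts among mice of 1 genotype, pooled over both groups (horizontal axis), with the 10 genes as orange lines whose height has no meaning. Trp53 (0.162) and Sesn1 (0.171) sit at the peak of the distribution, while Gadd45g, Cdkn1a and Gadd45b (0.935 to 1.32) lie in its right tail.

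Log2 levels of the 10 genes were correlated in pairs across the 8 mice, and none of the 45 pairs passed the adjustment over all pairs. Cdkn1a and Btg2 had the closest relation of the 45 pairs (Pearson's r = 0.889, exact permutation test, P = 0.00213, BH-adjusted P = 0.096; Spearman's rho = 0.881, P = 0.00724, adjusted P = 0.161). With both genes centred within each genotype r was 0.937, and without the 2 mice farthest from the median of Cdkn1a it was 0.756. Next came Cdkn1a with Gadd45g (r = 0.827, exact permutation test, P = 0.00982, adjusted P = 0.221, rho = 0.762, P = 0.0368, adjusted P = 0.344, and r = 0.817 without the 2 farthest mice) and Cdkn1a with Ccng1 (r = 0.79, exact permutation test, P = 0.02, adjusted P = 0.3, rho = 0.857, P = 0.0107, adjusted P = 0.161, and r = 0.676 without them). Gadd45g with Btg2 had an r of 0.769 (exact permutation test, P = 0.0304, adjusted P = 0.342, rho = 0.881, P = 0.00724, adjusted P = 0.161, and r = 0.8 without the 2 farthest mice). Trp53inp1 followed with Btg2 (r = 0.719, exact permutation test, P = 0.0468, adjusted P = 0.38, rho = 0.524, P = 0.197, adjusted P = 0.762, and r = 0.619 without the 2 farthest mice) and with Ccng1 (r = 0.706, exact permutation test, P = 0.0507, adjusted P = 0.38, rho = 0.738, P = 0.0458, adjusted P = 0.344, and r = 0.202 without the 2 mice farthest from the median of Ccng1). Ccng1 had lower coefficients with Btg2 (r = 0.618, exact permutation test, P = 0.101, adjusted P = 0.564, rho = 0.738, P = 0.0458, adjusted P = 0.344, and r = 0.539 without the 2 farthest mice) and with Gadd45g (r = 0.371, exact permutation test, P = 0.366, adjusted P = 0.832, rho = 0.452, P = 0.267, adjusted P = 0.762, and r = 0.55 without them). Unless another gene is stated, the 2 farthest mice of a pair are those farthest from the median of its first-named gene. Each r rests on 8 mice, and both genes of a pair share the scaling of the library they come from. For Trp53 mRNA with Cdkn1a the relation was weak and rested on which mice were kept (r = -0.14, exact permutation test, P = 0.79, adjusted P = 0.993, rho = -0.524, P = 0.197, adjusted P = 0.762, and r = -0.716 without the 2 farthest mice).

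**Figure D4:**
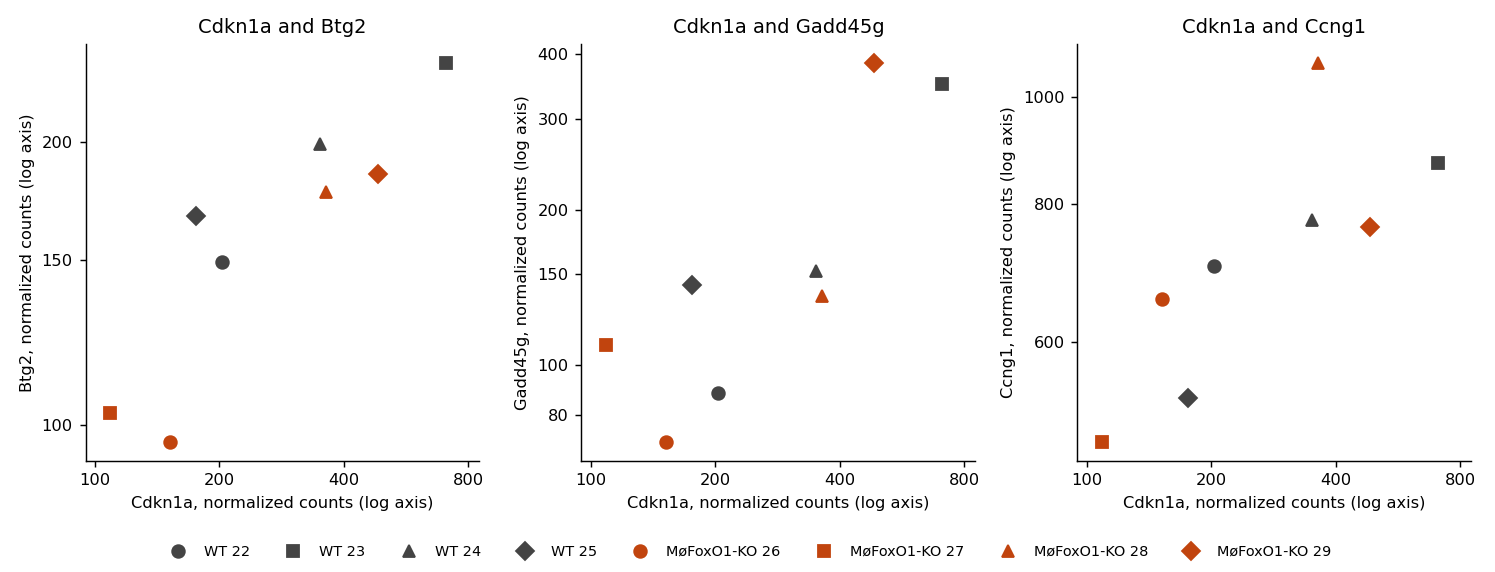
Normalized counts of Btg2, Gadd45g and Ccng1 (vertical axes) against those of Cdkn1a (horizontal axes), all on log scales, 1 symbol a mouse, with WT in grey and MøFoxO1-KO in orange. MøFoxO1-KO 26 and 27 have the lowest and WT 23 the highest Cdkn1a level, and Pearson's r over the 8 mice is 0.889, 0.827 and 0.79 from left to right.

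The lowest and highest levels were spread over 7 of the 8 livers. MøFoxO1-KO 27 had the lowest level of 4 genes (Cdkn1a, Ccng1, Gadd45a and Trp53inp1) and MøFoxO1-KO 26 that of 3 (Gadd45b, Gadd45g and Btg2), whereas MøFoxO1-KO 28 had the highest level of 3 (Mdm2, Ccng1 and Trp53inp1) and WT 23 that of 2 (Cdkn1a and Btg2). WT 23 was also the lowest for Trp53 and Sesn1, WT 24 the highest for Trp53 and Gadd45b, MøFoxO1-KO 29 the highest for Gadd45g and Sesn1, and WT 22 the lowest for Mdm2 and the highest for Gadd45a. MøFoxO1-KO mice thus held both the low and the high end for Ccng1, Trp53inp1 and Gadd45g, and WT 25 was at neither end for any gene.

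The genes whose log2 levels followed Cdkn1a and Gadd45b most closely were looked up among 10389 genes with a mean of at least 50 normalized counts. For Cdkn1a they were Snrnp200, which encodes a helicase of the spliceosome (r = 0.948 over 8 mice), Etnk1, an ethanolamine kinase (0.936), and Wdr44 (0.926). These moved over a much narrower range than Cdkn1a, for example 613 to 812 normalized counts for Snrnp200. For Gadd45b they were Micu3, a regulator of the mitochondrial calcium uniporter (0.958), the long noncoding RNA Gm15441 (0.953) and Atg16l2, a homolog of an autophagy protein (0.949). Gm15441 moved over a range at least as wide as that of Gadd45b, with 112, 65.9, 785 and 237 normalized counts in WT and 32.6, 348, 292 and 378 in MøFoxO1-KO livers, and was likewise highest in WT 24 and lowest in MøFoxO1-KO 26. Its exons overlap those of Txnip on the opposite strand, so reads of the 2 cannot be told apart unless counting used strand. These 6 genes were picked as the closest of many, and their r is given as a description.

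Other genes of the pathway were read from lists, and no gene of these lists had an adjusted P under 0.05 with edgeR (Benjamini-Hochberg) or limma-voom. Every list is to be read beside all tested genes. Of those, 8.65% were higher and 8.06% lower at an unadjusted P under 0.05 with edgeR, and the groups did not overlap in 9.71%. DESeq2 put 586 of 13278 past an adjusted P of 0.05. Of 26 p53 regulators 23 were tested, 12 of them higher and 11 lower around a median of 0.00 on the log2 scale, and at an unadjusted P under 0.05 edgeR had 3 higher and 2 lower. Cdkn2a, which encodes the Mdm2 inhibitor p19Arf and the kinase inhibitor p16Ink4a, had the largest difference. Its normalized counts were 3.75, 0.983, 8.31 and 4.98 in WT and 17.3, 23.9, 15.2 and 35.8 in MøFoxO1-KO livers. Every MøFoxO1-KO mouse lay above every WT mouse (exact permutation test, P = 0.0286, the smallest possible), but Cdkn2a had only 1 to 32 counts in a mouse. It was named for the smallest unadjusted P of its list, so this permutation P is a description and no separate support. For Cdkn2a the log2 fold change was 2.31 ± 0.54 (SE, BH-adjusted P = 0.11 with edgeR and 0.00653 with DESeq2, and at most 0.31 in any other setting). Ep300, the acetyltransferase p300 that acts on p53, had a log2 fold change of -0.28 without overlap of the groups (BH-adjusted P by edgeR = 0.237). Trp53bp2 (-0.37) and Rpl11, a ribosomal protein that binds Mdm2 and whose reads can be shared with pseudogene copies (0.45), had adjusted P of 0.234 and 0.27 in the same edgeR test.

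Among 45 other p53 target genes, 39 were tested. Of these 22 were higher and 17 lower around a median of 0.06 on the log2 scale, and edgeR put 2 higher and 2 lower at an unadjusted P under 0.05, while DESeq2 had 0 past an adjusted P of 0.05. Bbc3, which encodes the proapoptotic protein PUMA, had 200 ± 36.9 normalized counts in WT livers versus 140 ± 32.6 in livers of MøFoxO1-KO mice (SD, n = 4 each, log2 fold change -0.52, BH-adjusted P by edgeR = 0.25). Tnfrsf10b, a death receptor for TRAIL, had 35.6, 42.3, 35.1 and 26.9 in WT and 7.67, 5.97, 34.2 and 11.2 in MøFoxO1-KO livers. MøFoxO1-KO 28 lay within the WT range and the other 3 MøFoxO1-KO mice lay below all WT mice. The log2 fold change of Tnfrsf10b was -1.22 (BH-adjusted P by edgeR = 0.264), and without MøFoxO1-KO 28 it was -2.05 and was called (BH-adjusted P by edgeR = 0.0441). No other fit put it past 0.05. Without MøFoxO1-KO 27 it was -0.97 (BH-adjusted P by edgeR = 0.529), and Tnfrsf10b had only 5 to 43 counts in a mouse. Rps27l (0.48) and Dcxr (0.46) had positive log2 fold changes with adjusted P of 0.26 and 0.263 by edgeR, and the groups of Dcxr did not overlap.

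Of 15 paralogs of the 10 genes, 12 were tested, 3 of them higher and 9 lower around a median of -0.12 on the log2 scale. At an unadjusted P under 0.05 edgeR had 1, Tob2, a BTG/TOB protein like Btg2 (log2 fold change -0.41, BH-adjusted P = 0.269). GADD45 partners, 17 of 18 tested, had 6 higher and 11 lower and a median of -0.05. There the 1 gene at an unadjusted P under 0.05 was Map2k4, the kinase between MTK1 and JNK, with 561 ± 61.7 normalized counts in WT livers versus 446 ± 43.3 in livers of MøFoxO1-KO mice (SD, n = 4 each) and no overlap (log2 fold change -0.33, BH-adjusted P by edgeR = 0.218). DESeq2 had 0 genes past an adjusted P of 0.05 in both lists. All 32 other FoxO target genes were tested, with 9 higher and 23 lower and a median of -0.10. At an unadjusted P under 0.05 edgeR had 2 higher and 5 lower, beside 8.65% and 8.06% of all tested genes. Pdk4, the kinase that shuts off pyruvate dehydrogenase in fasting, had 410 ± 144 normalized counts in WT livers versus 170 ± 110 in livers of MøFoxO1-KO mice (SD, n = 4 each, log2 fold change -1.28, BH-adjusted P = 0.183 with edgeR and 0.0422 with DESeq2, and at most 0.428 in any other setting). Pnpla2, the lipase ATGL, had a log2 fold change of -0.32, Klf2 of 0.89 and Apoc3 of 0.59 (BH-adjusted P by edgeR = 0.212, 0.187 and 0.225). In none of these 3 did the groups overlap, which held for 9.71% of all tested genes.

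**Figure D5:**
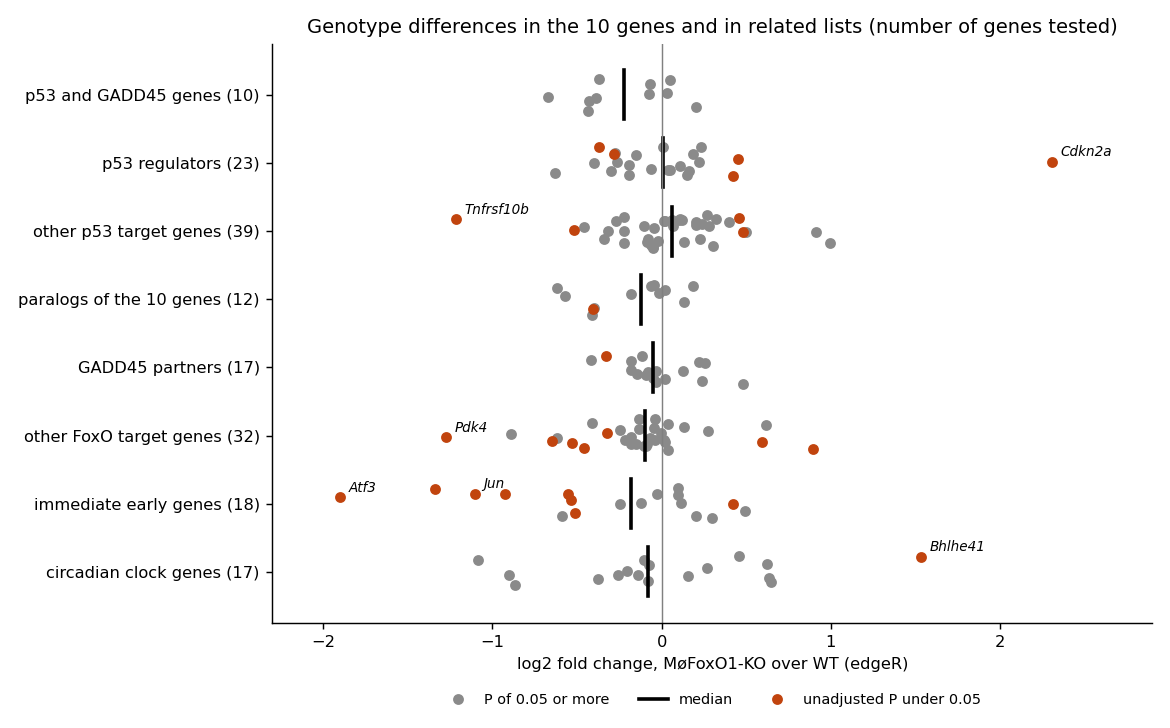
Log2 fold change of MøFoxO1-KO over WT (horizontal axis) of each tested gene in the 10 genes and in 7 related lists, with the median as a black bar and genes at an unadjusted edgeR P under 0.05 in orange. The 10 genes hold no orange point and lie between -0.67 (Gadd45b) and 0.20 (Mdm2), whereas other lists hold single genes far from 0, such as Cdkn2a (2.31) and Atf3 (-1.90).

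Cell type markers were read beside these values, since the 10 genes are expressed in many liver cells. Of 16 macrophage markers, all tested, 14 had a higher and 2 a lower mean in the MøFoxO1-KO group, at a median difference of 0.80 on the log2 scale. Their summed normalized counts ranged from 4589 to 8339 in WT and from 5772 to 23247 in MøFoxO1-KO livers. DESeq2 put 2 of them, Marco and Timd4, past an adjusted P of 0.05, beside 586 of all 13278 tested genes, and edgeR 0. At an unadjusted P under 0.05 edgeR had 7 higher, beside 8.65% of all tested genes. Sums over all 15 T and NK cell markers, of which 8 were tested, were 122 to 227 in WT and 160 to 388 in MøFoxO1-KO livers. Those of 8 B cell markers were 395 to 1708 and 688 to 2736. The sums of 9 endothelial markers were 1967 to 4525 and 3526 to 5775, and those of 10 stellate cell markers 5528 to 9224 and 6332 to 10224. Single stellate cell markers went both ways, with 6 higher and 4 lower. At an unadjusted P under 0.05 edgeR had 0 of them higher and 2 lower, beside 8.65% and 8.06% of all tested genes. WT 23, the highest mouse for Cdkn1a and Btg2, had the lowest sum in each of these 5 lists. MøFoxO1-KO 29 had the highest macrophage, T and NK cell, B cell and stellate cell sums. Its Cdkn1a level (484 normalized counts) lay above that of every mouse but WT 23. Hepatocyte markers (8 of 10 higher, median 0.18) summed to 1210738 to 1617043 in WT and 1431847 to 2065477 in MøFoxO1-KO livers. DESeq2 put 3 of these 10, Apoa1, Asgr1 and Serpina1a, past an adjusted P of 0.05, and edgeR 0. At an unadjusted P under 0.05 edgeR had 3 of them higher and 0 lower. Of 9 neutrophil markers 3 were tested (sums over all 9 of 63.7 to 155 and 44.1 to 152), and 6 of 7 cholangiocyte markers (sums over all 7 of 1596 to 2038 and 1350 to 1802). Proliferation markers, 17 of 19 tested, had 7 higher and 10 lower, a median of -0.03 and 0 genes at an unadjusted P under 0.05 with edgeR. All 19, tested or not, summed to 954 to 1191 in WT and 935 to 1283 in MøFoxO1-KO livers. The part of these cell types in the levels of the 10 genes was not tested.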

How the data were processed

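Polyadenylated RNA of 10 mg of liver from each of 4 MøFoxO1-KO mice and 4 WT littermates was sequenced. The authors deposited raw read counts per Ensembl gene on GRCm38, without normalization. STAR, featureCounts and mm10 are named in the submitters' processing notes, without versions. Symbols came from GENCODE M21, which gave 46005 of 46517 genes a symbol.

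The filter of edgeR 4.0.16 in R 4.3.3, with at least 10 counts in enough mice and 15 in total, kept 13278 genes. TMM scaling and a quasi-likelihood fit on genotype alone followed, with Benjamini-Hochberg (BH) adjustment over these genes. Calls needed an adjusted P under 0.05 plus a log2 fold change beyond 1.5 in either direction. Exact permutation tests of normalized counts (scipy 1.17.1) were two-sided, with 0.0286 as the smallest P that this design can give. Correlations and SDs used log2(normalized count + 0.5), and Poisson intervals cover counting error only. Spreads are those between separate mice. Litters, batches and dates are not given in the sources used here.

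The 10 genes, the other lists and the tests were chosen with earlier results of these data known. From each list, the text names the genes past an adjusted P of 0.05 or else those with the smallest unadjusted P under 0.05, up to 4 a list, and for Cdkn1a and Gadd45b the 3 genes closest in level. Markers named for DESeq2 calls, and Ier2 among the immediate early genes, were chosen after their values were seen. Alternatives were DESeq2 1.42.0, limma-voom (limma 3.58.1), edgeR's robust option, DESeq2 size factors, upper-quartile normalization, no filter, at least 10 counts in every mouse, other thresholds and leaving out each mouse. The methods were tested on simulated data.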

Additional observations from a re-analysis of the deposited data

Results flagged for a closer look

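WT 24 stood apart from the other WT mice in Trp53. It had 489 normalized counts (530 counts, exact 95% Poisson interval 448 to 533) beside 347 to 371 in WT 22, 23 and 25, and the gap took up 0.832 of the range of the group, just above Dixon's 95% limit for 4 samples. The MøFoxO1-KO mice had 350 to 387. Both groups of all 10 genes were examined, 20 groups in all, and chance alone puts about 1 in 20 past the limit. Without WT 24 the log2 fold change of Trp53 was 0.04 in place of -0.08.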

How the results depend on the processing

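None of the 10 genes was called in any of the 15 other fits or at the looser thresholds (adjusted P under 0.1, unadjusted P under 0.05). Leaving out 1 mouse moved the log2 fold change across 0 for 6 of them: Trp53 (-0.13 to 0.04, positive without WT 24), Cdkn1a (-0.78 to 0.19, positive without WT 23), Ccng1 (-0.17 to 0.21, negative without WT 25 at -0.07 or MøFoxO1-KO 28), Gadd45b (-0.99 to 0.18, positive without WT 24), Gadd45g (-0.80 to 0.45, positive without WT 23 or MøFoxO1-KO 26, 27 or 28) and Sesn1 (-0.03 to 0.11, negative without WT 23 or MøFoxO1-KO 29). It kept its sign for Mdm2 (0.05 to 0.30), Gadd45a (-0.61 to -0.21), Trp53inp1 (-0.76 to -0.19) and Btg2 (-0.59 to -0.29). At an unadjusted P under 0.05, edgeR had 1 of the 10 without MøFoxO1-KO 28 (Trp53inp1) and 1 without MøFoxO1-KO 29 (Btg2). The share of all tested genes at that unadjusted P is not given for these fits, so neither count can be set beside it. Counts over all genes depended on the fit: 39 genes had an adjusted P under 0.05 with edgeR, 586 with DESeq2, 24 with limma-voom, 205 without a filter, 3 without WT 25 and 129 without MøFoxO1-KO 28. The causes were not tested. No analysis paired by litter was possible because litters are not given in the sources used here.

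With 4 mice a group, the intervals of Cdkn1a, Btg2, Gadd45a, Gadd45b, Gadd45g and Trp53inp1 include differences of more than 2-fold, so the absence of a call does not show that their levels were alike. Low counts, as few as 22 for Gadd45b, add counting error. Whole liver RNA does not separate myeloid cells from hepatocytes.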

Other observations

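Immediate early genes, which answer within minutes to growth factors and stress as Btg2 and the Gadd45 genes can, numbered 18 after the filter, with 7 above and 11 below their WT level around a median of -0.18 on the log2 scale. At an unadjusted P under 0.05, edgeR had 1 higher and 7 lower, beside 8.65% and 8.06% of all tested genes. The 1 higher gene was Ier2, with 395 to 599 normalized counts in WT and 654 to 755 in MøFoxO1-KO livers (log2 fold change 0.42, BH-adjusted P by edgeR = 0.183). No gene of the list had an adjusted P under 0.05 with edgeR or limma-voom, and 4 had one with DESeq2 (Atf3, Jun, Jund and Zfp36). Jun, a subunit of AP-1 and a target of JNK signalling, had 514, 753, 480 and 412 normalized counts in WT and 173, 281, 321 and 231 in MøFoxO1-KO livers. No MøFoxO1-KO mouse reached the lowest WT mouse. The log2 fold change of Jun was -1.10 ± 0.23 (SE, BH-adjusted P = 0.0953 with edgeR, 0.0157 with edgeR without a filter and 0.00122 with DESeq2, and at most 0.245 in any other setting). Zfp36, which destabilizes inflammatory mRNAs, and Jund had log2 fold changes of -0.51 and -0.54, again without overlap (BH-adjusted P = 0.131 and 0.15 with edgeR, 0.031 and 0.0475 with DESeq2). The groups did not overlap in 9.71% of all tested genes. Atf3, a stress-induced factor that p53 also induces, had 271, 60, 138 and 27.9 in WT and 25.9, 27.5, 31.3 and 48.1 in MøFoxO1-KO livers, where WT 25 lay within the MøFoxO1-KO range (log2 fold change -1.90, BH-adjusted P = 0.182 with edgeR, 0.0258 with DESeq2 and 0.365 with limma-voom). Without WT 22, its highest mouse, the log2 fold change of Atf3 was -1.18 (BH-adjusted P = 0.328 with edgeR), and limma-voom gave -1.49 over all 8 mice. Summed over the 19 genes of the list, tested or not, normalized counts were 6417 to 7390 in WT and 4534 to 6001 in MøFoxO1-KO livers.

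All 17 circadian clock genes were tested, with 7 higher and 10 lower and a median log2 fold change of -0.08. Of these, edgeR had 1 at an unadjusted P under 0.05, Bhlhe41, a repressor of the clock, with 28.1, 20.6, 60.9 and 29.9 normalized counts in WT and 155, 74.0, 117 and 58.2 in MøFoxO1-KO livers. MøFoxO1-KO 29 lay just below WT 24 and the other 3 mice of its group lay above all 4 WT mice (log2 fold change 1.53, BH-adjusted P = 0.131 with edgeR and 0.00895 with DESeq2).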
